A study of Homo sapiens with 18 samples.

Results

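Carbonic anhydrases and bicarbonate transporters set the pH of a cell and of the fluid around it. The 7 genes described here are CA2, CA9, CA12, CA13, SLC4A2, SLC4A4 and SLC4A7. They were taken by gene symbol from a whole transcriptome RNAseq table that lists 38055 genes, and all 7 were found. The samples were wild-type HCT116 cells, a human colorectal carcinoma line of epithelial origin, and carried no treatment or engineered allele. Whole cell RNA was taken on day 3 at 50% confluency and on day 5 at 250% confluency, with 3 libraries per day that are labelled as biological replicates. The study's methods describe fresh medium every day from the second day of culture. Day and confluency rose together, so time in culture and cell density cannot be told apart here, and day 7 libraries were not analysed here.

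Carbonic anhydrases interconvert carbon dioxide and bicarbonate with release or uptake of a proton. CA9 and CA12 are anchored in the plasma membrane with their active site outside the cell, whereas CA2 and CA13 are cytosolic. Transporters of the SLC4 family carry bicarbonate across the membrane, in exchange for chloride in the case of SLC4A2 and together with sodium in the case of SLC4A4 and SLC4A7. CA9 is a textbook target of hypoxia-inducible factors and is known as a marker of poorly oxygenated tumour tissue, and in colonic epithelium CA2 and the SLC4 transporters take part in salt and bicarbonate transport.

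From day 3 to day 5, CA9 went from almost no reads to a level of about 199 normalized reads, CA12 and SLC4A2 rose and CA2 fell. CA13, SLC4A4 and SLC4A7 did not pass the test. A normalized read is a read count divided by the authors' scaling factor for that library, and 1 read was worth between 0.618 and 1.42 normalized reads. The tool behind that factor is not settled by the sources, which name TMM while the column names are those of DESeq2 output. Each library held between 27470978 and 56689369 reads on genes. Differences were tested with limma on log2(value + 1) over the 20129 genes that reached 10 normalized reads in 3 or more of the 6 libraries, and p-values were adjusted by Benjamini-Hochberg over all of them. Of the 7 genes, 4 were called at an adjusted p under 0.05. Among all genes tested, 56.9% were called, 29.3% as higher on day 5 and 27.6% as lower. The 3 higher and 1 lower calls among the 7 genes are therefore close to what the whole table gave, and the description rests on each gene's own values.

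**Figure D1:**
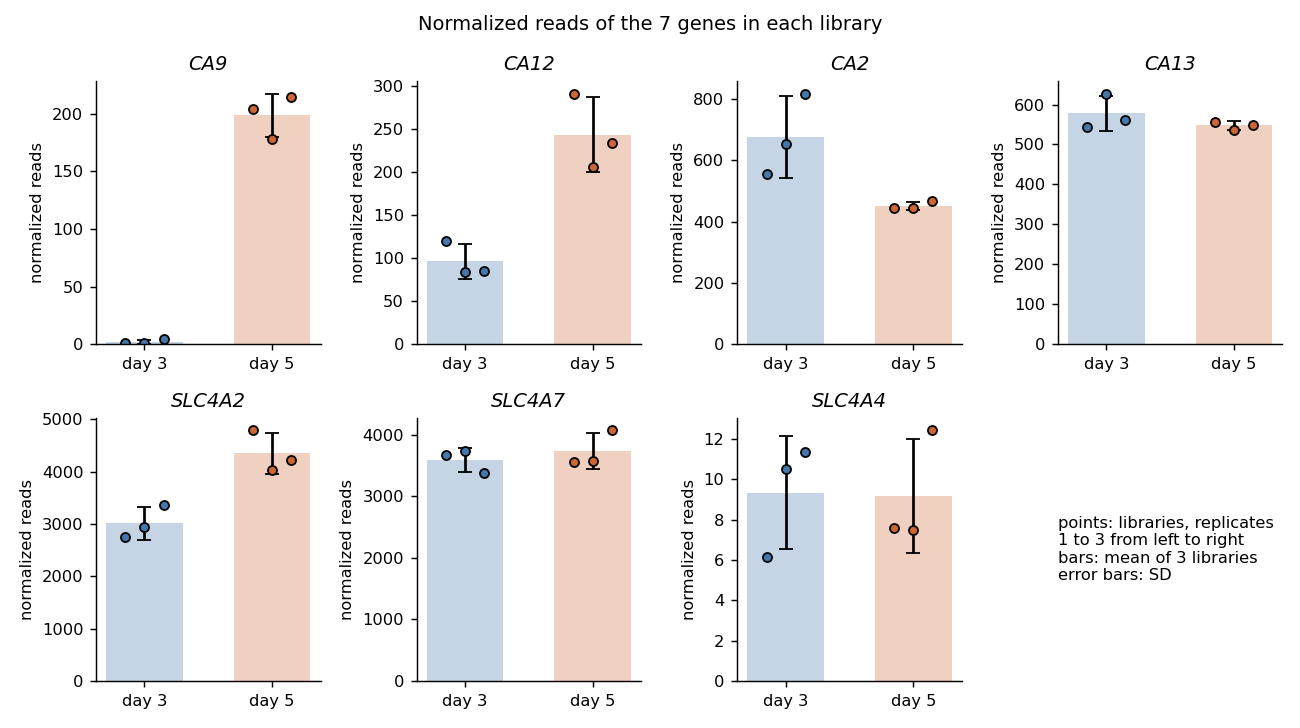
Normalized reads (y axis, from 0, a separate scale for each gene) of the 7 genes on day 3 and day 5, with a point per library, bars for the mean of 3 libraries and error bars for the SD. CA9, CA12 and SLC4A2 have all day 5 points above all day 3 points, CA2 has them all below, and the points of CA13, SLC4A7 and SLC4A4 overlap.

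Of the membrane enzymes, CA9 (ENSG00000107159) lies at chr9:35673928-35681159 on the plus strand of GRCh38. CA12 (ENSG00000074410) lies at chr15:63321378-63381846 on the minus strand. The 250 bases before the start of each gene, chr9:35673678-35673927 and chr15:63381847-63382096, are printed because these are the membrane enzymes that rose and CA9 is known for a hypoxia-response element close to its start. The sequences are from RefSeq on GRCh38.p14, on the strand of the gene, and capitals mark every match to ACGTG or GCGTG on either strand, the core letters bound by hypoxia-inducible factors.
CA9: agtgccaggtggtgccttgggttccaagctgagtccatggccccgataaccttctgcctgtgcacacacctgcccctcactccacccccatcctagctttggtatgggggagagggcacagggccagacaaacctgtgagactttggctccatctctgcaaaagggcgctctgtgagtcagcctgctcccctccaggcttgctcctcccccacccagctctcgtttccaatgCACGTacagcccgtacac
CA12: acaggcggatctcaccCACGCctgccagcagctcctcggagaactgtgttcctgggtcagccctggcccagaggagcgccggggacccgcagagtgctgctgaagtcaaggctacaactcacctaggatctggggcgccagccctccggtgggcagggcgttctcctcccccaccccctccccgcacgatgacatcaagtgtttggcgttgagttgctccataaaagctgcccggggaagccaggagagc
The CA9 window held 1 match, to ACGTG on the other strand, from 18 to 14 bases before the start. The CA12 window held 1 match, to GCGTG on the other strand, from 234 to 230 bases before the start. Such letters are frequent: of 35116 windows of 250 bases before gene starts, 18.5% held ACGTG and 32.2% held GCGTG on either strand, and 43.2% held at least 1 of them. In the windows of the other genes searched, SLC4A2 held 2, 1, 6 and 7 matches before its 4 start sites, SLC4A7 held 0 and 2 before its 2, and SLC4A4 held none before its 5. Windows of near start sites overlap, and the letters CACGTG, present in 6.35% of all windows, count as a match on each strand. A match is a description of these letters and was not tested as a binding site.

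CA9 was listed at 0.878, 0.618 and 4.25 normalized reads in the 3 day 3 libraries and at 204, 178 and 214 in the 3 day 5 libraries. On day 3 these values stood for 1, 1 and 3 reads, and on day 5 for 188, 166 and 207 reads. Every day 3 library was thus at or under 3 reads, and every day 5 library was far above that count. The count of 3 reads was set as a floor for presence and was not estimated from these data. The mean rose from 1.92 ± 2.03 (SD, n = 3) to 199 ± 18.8 (SD, n = 3) normalized reads. With the reads of each day pooled, 5 against 561, and scaled for the size of the libraries, day 5 was 138 times day 3, with a 95% counting interval from 58.7 to 426. This interval covers counting error only.

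On the log2(value + 1) scale, which understates the change of a gene near 0, CA9 rose by 6.31 (SE 0.45, adjusted p = 0.000235, limma with Benjamini-Hochberg adjustment). That was the largest rise among the 20129 genes tested, and CA9 was the first or the second by size under every alternative fit. The fitted fold depended on the added constant: it was 79.1 with a constant of 1 and 137 with 0.1, and DESeq2 and edgeR on the recovered reads gave 136 and 125. CA9 entered the test only through its day 5 libraries, so it had to differ, and its call adds nothing to its values.

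CA12 was at 120, 84.1 and 85.1 normalized reads on day 3 and at 292, 206 and 234 on day 5. The lowest day 5 library lay above the highest day 3 library. The mean went from 96.5 ± 20.6 (SD, n = 3) to 244 ± 43.8 (SD, n = 3), a ratio of 2.53. The rise was 1.33 on the log2 scale (SE 0.19, 95% interval from 0.86 to 1.81, adjusted p = 0.00188, limma with Benjamini-Hochberg adjustment), larger than that of 94.8% of the genes tested. Both membrane enzymes were thus higher on day 5, from very different starting levels. In every library CA12 had more reads than CA9, but CA9 has the shorter transcript, which gives fewer reads at an equal level. Per kilobase of exon, CA9 was above CA12 on day 5, at 124 and 34.8 normalized reads. CA9 reads came to 0.730%, 0.735% and 5.00% of CA12 reads on day 3 and to 69.9%, 86.5% and 91.6% on day 5. These percentages do not depend on scaling between libraries. With a constant of 1 added to both values, the log2 ratio of CA9 to CA12 was 4.97 higher on day 5, and it was 5.75 higher with a constant of 0.1 and 5.58 higher without day 3 replicate 3. A two-sided exact permutation test gave p = 0.1, which is the lowest value this design can give (0.15 after Benjamini-Hochberg adjustment over 3 pairs of genes). Since CA9 passed the filter only through its day 5 libraries, this ratio test adds nothing to the values.

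Of the cytosolic enzymes, CA2 (ENSG00000104267), a fast and widespread form of the enzyme, was at 555, 655 and 818 normalized reads on day 3 and at 444, 446 and 466 on day 5. All day 5 libraries lay below all day 3 libraries, and the day 3 libraries were spread more widely. The day 5 mean of 452 ± 12.3 (SD, n = 3) was 66.9% of the day 3 mean of 676 ± 133 (SD, n = 3). CA2 fell by 0.56 on the log2 scale (SE 0.15, 95% interval from -0.93 to -0.20, adjusted p = 0.0199, limma with Benjamini-Hochberg adjustment). This call was not robust to the choice of libraries and genes. The adjusted p in limma was 0.0517 without day 3 replicate 2, 0.0582 without day 5 replicate 1, 0.0577 without day 5 replicate 2 and 0.0708 with no filter on low values, with CA2 lower on day 5 in each. DESeq2 and edgeR on the recovered reads kept the call, with adjusted p-values of 4.74e-05 and 0.000163.

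CA13 (ENSG00000185015) was at 544, 627 and 561 normalized reads on day 3 and at 557, 536 and 550 on day 5. The libraries of the days overlapped, with means of 578 ± 43.9 (SD, n = 3) and 548 ± 10.9 (SD, n = 3). The difference was -0.07 on the log2 scale (SE 0.08, adjusted p = 0.485, limma with Benjamini-Hochberg adjustment), and its 95% interval of -0.28 to 0.13 allows a day 5 level between 0.822 and 1.10 times that of day 3. The CA2 to CA13 ratio in reads was 1.02, 1.04 and 1.46 on day 3 and 0.796, 0.832 and 0.847 on day 5. CA2 therefore had more reads than CA13 in every day 3 library and fewer in every day 5 library. The log2 ratio, with 1 added to both values, differed by -0.49 between days (-0.32 without day 3 replicate 3), with p = 0.1 in a two-sided exact permutation test, the smallest possible, and 0.15 after adjustment over the 3 pairs.

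**Figure D2:**
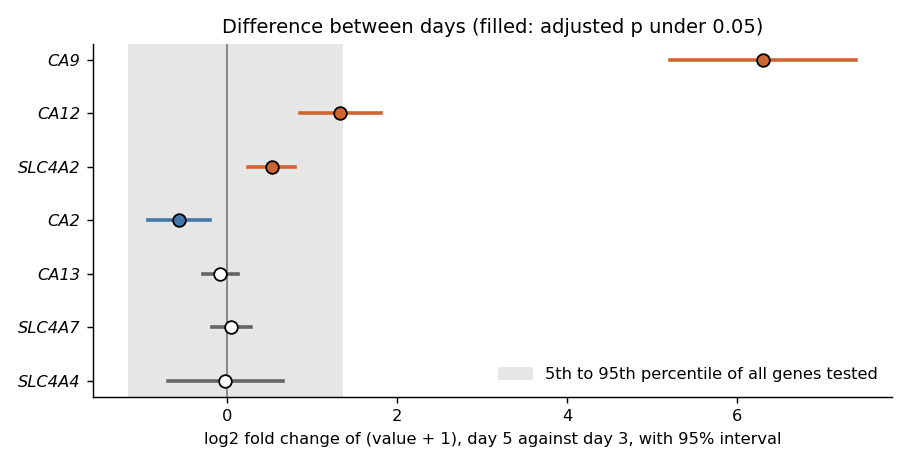
Log2 fold change of (value + 1) on day 5 against day 3 from limma (x axis) for each of the 7 genes, with lines for 95% intervals, filled points for an adjusted p under 0.05 and a grey band from the 5th to the 95th percentile of the 20129 genes tested (-1.15 to 1.35). CA9 stands at 6.31, far outside the band, while CA12 at 1.33 lies close to its upper edge and the other genes lie inside it.

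The chloride-bicarbonate exchanger SLC4A2 (ENSG00000164889) lies at chr7:151057210-151076526 on the plus strand of GRCh38 and moves bicarbonate out of the cell in exchange for chloride. It was at 2752, 2935 and 3360 normalized reads on day 3 and at 4793, 4030 and 4229 on day 5. The days did not overlap. The mean rose 1.44 times, from 3016 ± 312 (SD, n = 3) to 4351 ± 396 (SD, n = 3), and the rise of 0.53 on the log2 scale (SE 0.11, 95% interval from 0.25 to 0.81) had an adjusted p of 0.00883 in limma with Benjamini-Hochberg adjustment. The call held under every alternative, with adjusted p-values up to 0.0448. In size the rise was ordinary for these libraries, exceeding that of 74.9% of the genes tested.

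The sodium-bicarbonate cotransporters carry bicarbonate together with sodium, in most cells inward. SLC4A7 (ENSG00000033867), at chr3:27372721-27484420 on the minus strand, was at 3670, 3736 and 3372 normalized reads on day 3 and at 3563, 3579 and 4073 on day 5. The days overlapped, with means of 3593 ± 194 (SD, n = 3) and 3738 ± 290 (SD, n = 3). The difference was 0.06 on the log2 scale (SE 0.09, adjusted p = 0.63, limma with Benjamini-Hochberg adjustment), with a 95% interval that allows a day 5 level between 0.889 and 1.22 times that of day 3.

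SLC4A4 (ENSG00000080493), at chr4:71062667-71572087 on the plus strand, was near the limit of detection on both days. Its values were 6.15, 10.5 and 11.3 normalized reads on day 3 and 7.59, 7.50 and 12.4 on day 5, standing for 7 to 17 reads per library. It reached the minimum of 10 in 3 libraries, just enough to be tested. The means were 9.33 ± 2.79 (SD, n = 3) and 9.17 ± 2.82 (SD, n = 3), and the libraries overlapped. The difference of -0.02 on the log2 scale (SE 0.28, adjusted p = 0.964, limma with Benjamini-Hochberg adjustment) has a 95% interval that allows between 0.617 and 1.58 times the day 3 level, so a moderate change was not detectable at this depth. SLC4A4 reads came to between 0.167% and 0.336% of SLC4A7 reads in the 6 libraries, and the ratio of these cotransporters gave p = 0.9 in a two-sided exact permutation test.

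Levels of different genes were compared per kilobase of annotated exon (GENCODE release 44). On day 3 SLC4A2 stood at 398 ± 41.2 (SD, n = 3) normalized reads per kb, SLC4A7 at 374 ± 20.1 and CA2 at 337 ± 66.2, and the libraries of neighbours in that order overlapped. CA13 at 103 ± 7.84 and CA12 at 13.8 ± 2.95 followed without overlap. CA9 at 1.20 ± 1.27 and SLC4A4 at 1.00 ± 0.299 came last and overlapped each other.

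On day 5 the order per kb was SLC4A2 at 575 ± 52.3 (SD, n = 3), SLC4A7 at 389 ± 30.1, CA2 at 225 ± 6.14, CA9 at 124 ± 11.7, CA13 at 97.9 ± 1.95, CA12 at 34.8 ± 6.26 and SLC4A4 at 0.983 ± 0.302. No neighbours in this order overlapped. CA9 had thus moved from the level of SLC4A4 to that of CA13. With the longest transcript as the length, CA9 at 129 and CA13 at 141 per kb changed places on day 5, and the order was otherwise the same.

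**Figure D3:**
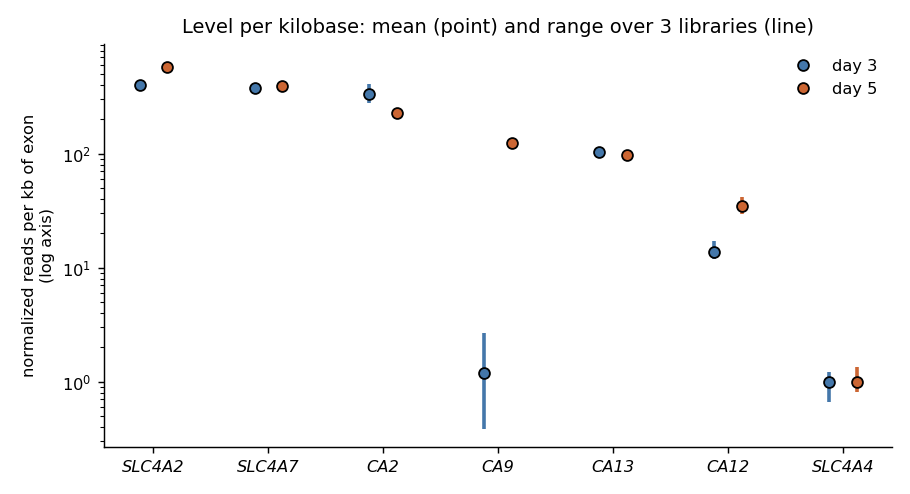
Normalized reads per kb of exon (y axis, logarithmic) of the 7 genes on each day, with points for the mean and lines for the range of 3 libraries. On day 3 CA9 sits beside SLC4A4 near 1, and on day 5 it sits at 124, beside CA13 at 97.9.

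The make-up of the 4 carbonic anhydrase RNAs differed between the days, whereas their sum did not separate them. Their summed level was 391, 451 and 523 normalized reads per kb on day 3 and 490, 459 and 498 on day 5, with means of 455 ± 65.7 (SD, n = 3) and 482 ± 20.8 (SD, n = 3) and overlapping libraries. CA2 made up 70.6%, 72.4% and 78.0% of the sum on day 3 and 45.1%, 48.4% and 46.6% on day 5. CA9 made up 0.140%, 0.0858% and 0.509% on day 3 and 26.0%, 24.3% and 26.9% on day 5. The shares of both genes did not overlap between days.

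CA12 went from a mean share of 3.13% ± 1.11 (SD, n = 3) to 7.21% ± 1.13 (SD, n = 3), also without overlap. CA13 went from 22.97% ± 3.27 (SD, n = 3) to 20.3% ± 0.575 (SD, n = 3), with overlapping libraries. The membrane enzymes together made up 4.53%, 2.75% and 2.83% on day 3 and 34.6%, 30.7% and 33.7% on day 5. These shares are of RNA, are given as a description and do not depend on scaling between libraries.

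**Figure D4:**
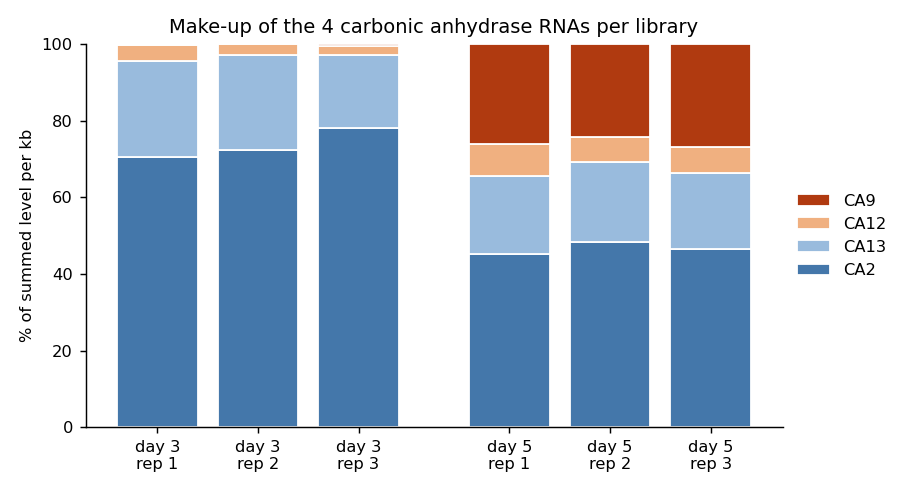
Share of each of CA2, CA13, CA12 and CA9 in their summed level per kb (y axis, percent) in each of the 6 libraries. CA9 takes at most 0.509% on day 3 and at least 24.3% on day 5, and CA2 drops from at least 70.6% to at most 48.4%.

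Other genes of pH control were read from 7 lists of 61 genes, of which 39 could be tested. Of these, 22 were higher on day 5 and 8 were lower, so 30 (76.9%) were called beside 56.9% of all genes tested. Their median log2 change was 0.43 beside 0.01 for all genes. The lists were chosen for their roles, with earlier results of these data known, and no test compared them with other genes.

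Of the other carbonic anhydrases 5 of 11 could be tested, and 1 rose. CA11, a catalytically inactive relative, went from 359 ± 53.04 to 736 ± 61.7 normalized reads (SD, n = 3 per day), a log2 change of 1.04 (adjusted p = 0.00129, limma with Benjamini-Hochberg adjustment). CA5B, a mitochondrial form, stood at 257 and 264 and was not called (adjusted p = 0.736 in limma with Benjamini-Hochberg adjustment). CA14, a further membrane form named after its values were seen, was low at 10.1 ± 10.6 and 12.5 ± 6.35 (SD, n = 3 per day). It was not called (adjusted p = 0.547 in limma with Benjamini-Hochberg adjustment). The remaining 6 genes of this list, among them the membrane-bound CA4, were too low to test or not listed.

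Of the other SLC4 genes 5 of 7 could be tested, and 3 rose while none of the 5 fell. SLC4A3, a further chloride-bicarbonate exchanger, went from 533 to 959 normalized reads, a log2 change of 0.85. SLC4A5, a sodium-bicarbonate cotransporter, went from 23.4 to 70.9, a log2 change of 1.57. SLC4A11 went from 439 to 592, a log2 change of 0.43. Their adjusted p-values in limma with Benjamini-Hochberg adjustment were 0.000918, 0.000743 and 0.00753. The exchangers SLC4A2 and SLC4A3 were thus both higher on day 5. Among the cotransporters SLC4A5 was higher too, whereas SLC4A4 and the abundant SLC4A7 were not called.

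Of the SLC26 anion exchangers 5 of 9 could be tested, 2 rose and 2 fell. SLC26A6, which exchanges chloride for bicarbonate, went from 1045 to 1829 normalized reads, a log2 change of 0.81. SLC26A2, a sulfate transporter, went from 1970 to 1278, a log2 change of -0.62. Of the SLC9 sodium-proton exchangers 7 of 9 could be tested, 4 rose and 1 fell. SLC9A7, an exchanger of internal membranes, went from 562 to 1483 normalized reads, a log2 change of 1.40.

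The list for transport of lactate together with a proton, which also holds the non-transporter genes BSG and EMB, split by member. All 5 tested of 6 genes were called, 2 as higher and 3 as lower. EMB, named after its values were seen, was among the lower ones, with a log2 change of -0.68. SLC16A3, the form linked to lactate export from glycolytic cells, went from 3614 ± 432 to 12786 ± 227 normalized reads (SD, n = 3 per day), a log2 change of 1.83. BSG, the chaperone that carries it to the membrane, went from 4695 to 11484, a log2 change of 1.31. SLC16A7 went from 887 to 435, a log2 change of -1.02. SLC16A1, the widespread form, named after its values were seen, went from 9233 to 4632, a log2 change of -0.996.

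Among partners and regulators of these transporters 9 of 10 genes could be tested, 8 rose and 1 fell. EZR encodes ezrin, which links membrane proteins to actin, and went from 42343 to 84010 normalized reads, a log2 change of 1.00. STK39, a kinase that regulates ion cotransporters, went from 6905 to 9406, a log2 change of 0.45. AHCYL1, a binding partner of SLC4A4 named after its values were seen, went from 3020 to 5174, a log2 change of 0.78. TESC, a calcium-binding regulatory protein named after its values were seen, was the gene called lower, with a log2 change of -0.57. That call was lost with no filter on low values, with the replicate number as a block, and without day 3 replicate 2 or 3 or day 5 replicate 2 or 3.

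Of the acid-sensing receptors and proton or acid-activated channels, 3 of 9 could be tested and all 3 were called. ASIC1 went from 716 to 1366 normalized reads and ASIC3 from 27.0 to 66.8, log2 changes of 0.93 and 1.33. PACC1, the acid-activated chloride channel, went from 820 to 420, a log2 change of -0.96. The acid-sensing receptors of the list were too low to test or not listed.

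**Figure D5:**
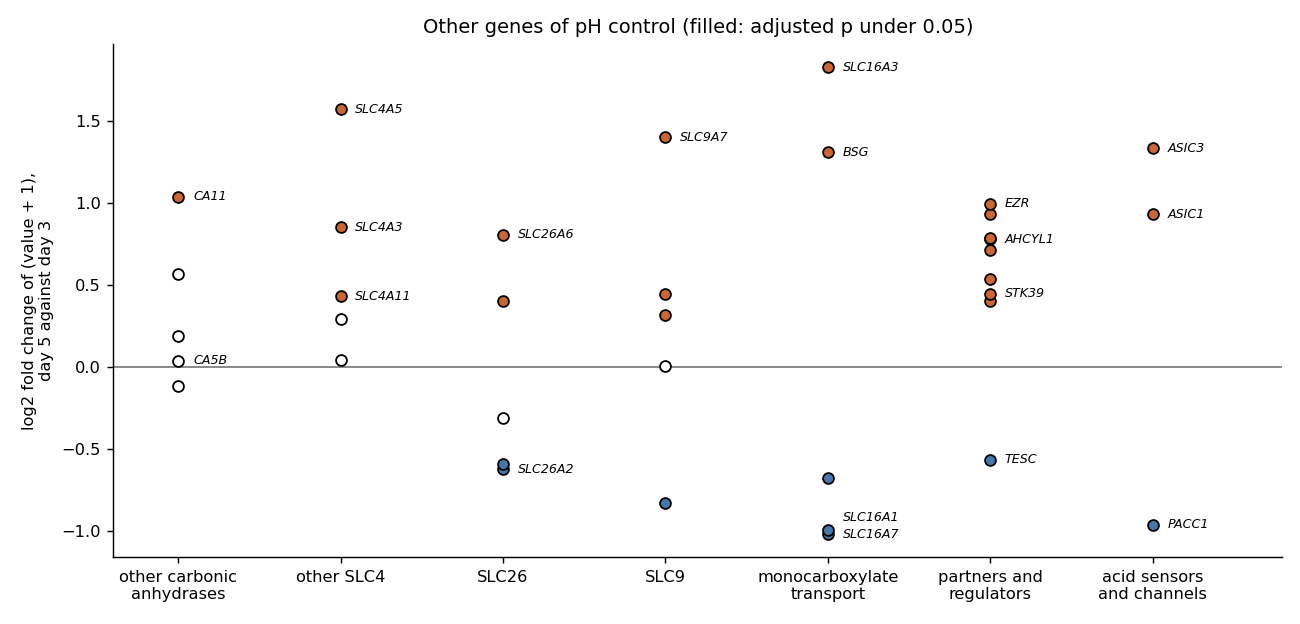
Log2 fold change of (value + 1), day 5 against day 3, from limma (y axis) of tested genes in the 7 lists of pH control (x axis). Points are filled where the adjusted p is under 0.05. Genes that the text names are labelled, except CA14, SLC4A8, SLC4A9 and EMB. In the lists of other SLC4 genes and of other carbonic anhydrases every called gene is above 0, and in monocarboxylate transport SLC16A3 at 1.83 and SLC16A7 at -1.02 mark the range.

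Reference lists, chosen with earlier results of these data known, also differed between the days. Of all genes tested, 29.3% were called higher and 27.6% lower, with a median log2 change of 0.01. All 12 hypoxia reference genes were higher on day 5, with a median log2 change of 2.33. VEGFA, for example, went from 1427 to 4494 normalized reads and SLC2A1, the glucose transporter, from 2341 to 23554. Of 10 proliferation genes 3 were higher and 7 lower, with a median of -0.72, and their directions were mixed: MKI67 went from 23803 to 34176 normalized reads and PCNA from 13781 to 5301. The part of either programme in the changes of the carbonic anhydrases was not tested.

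The labelled cell type was checked against its markers. EPCAM, an epithelial adhesion protein, was at 7227 and 7236 normalized reads, and the keratins KRT8, KRT18 and KRT19 were abundant on both days, whereas VIL1, CDX1 and LGALS4 were near 0. CDH1 went from 637 to 3940 and CDX2 from 226 to 306, both called higher. KRT20 was low and went the other way, from 30.9 to 19.4, without being called. The summed level of 10 colon epithelial markers was 37147 to 55229 on day 3 and 100361 to 101462 on day 5, and 5 of the 7 tested were higher. Fibroblast markers summed to 513 to 594 and 1114 to 1181, nearly all of it COL1A1, with DCN at 0 on day 5. Endothelial markers summed to 15.6 to 27.2 on day 3 and 39.3 to 68.3 on day 5, and both that could be tested, VWF and KDR, were called higher, while CDH5 was near 0. Blood cell markers summed to 19.2 to 24.1 and 13.0 to 17.6, and PTPRC was near 0. The part of these markers in the other results was not tested. In bulk RNA, fewer cells that express a gene and less RNA per cell cannot be told apart.

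The genes with the most similar pattern were taken, for each of the 7 genes, from the 2 with the highest Pearson r of log2(value + 1) over the 6 libraries, out of 12715 genes with a mean of at least 100. For CA9 these were TUBGCP2 (r = 0.9997) and MFSD10 (r = 0.9995), for CA12 MUC1 (r = 0.998) and OPLAH (r = 0.998), and for CA2 SPAG5 (r = 0.998). For SLC4A2 they were TRABD (r = 0.999) and CLN8 (r = 0.998). For the genes that were not called the best value was lower, with SNORA73B at 0.984 for CA13, SPRYD7 at 0.988 for SLC4A4 and TTC41P at 0.986 for SLC4A7. The values rest on only 6 libraries that fall into 2 days, so for the called genes a high r mostly restates the difference between days.

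Genes that overlap the 7 on the genome were checked, since reads there could be shared. CA9 overlaps ARHGEF39 over 1939 bases and SLC4A2 overlaps CDK5 over 688 bases, both on the opposite strand, and the methods state that reads were counted by strand. SLC4A2 also overlaps a protein-coding gene, ENSG00000288608, over 51 bases on the same strand, where counting by strand cannot separate reads, and that gene has no row in the table. ARHGEF39 went from 1008 to 816 normalized reads and CDK5 from 548 to 432, so both neighbours had lower means on day 5.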

How the data were processed

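The authors prepared rRNA-depleted libraries with molecular identifiers from whole cell RNA, and per the study's methods they trimmed the paired-end reads, mapped them to annotated hg38 genes by strand in CLC Genomics Workbench and set TMM as normalization. The deposited columns are instead named as in DESeq2 output, so the tool that made the scaling factors is not certain. The submitters' processing notes also name FastQC 0.11.8 and MultiQC 1.7. In the table the authors deposited, each gene has a normalized signal in each library. These deposited values were whole multiples of 1 read in 100% of cases (tolerance 0.01 read), so reads were recovered, and 0 columns of per-sample values were left unused. The deposited table also lists the authors' own log2 fold changes, p-values and mean signal, which were not used. Small RNA tables, which hold no gene of interest here, were not used.

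Groups and replicate numbers came from the labels. limma 3.58.1 (R 4.3.3) was fitted to log2(value + 1) with day as the only term, over genes that reached 10 in 3 or more of 6 libraries, with Benjamini-Hochberg adjustment and a threshold of 0.05. Alternatives were edgeR 4.0.16 and DESeq2 1.42.0 on recovered reads, library totals, no filter, a replicate block, a pseudocount of 0.1, omission of each library, and the longest transcript as length. For ratios within a library, an exact permutation test (two-sided) compared the days. Simulated data were used to check the limma step. P-values from limma set the difference between days against the spread between the 3 libraries per day, moderated over all genes tested. Permutation p-values come from reassigning the 6 libraries to the days. Counting intervals cover counting error only.

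The 7 genes and all lists were chosen with earlier results of these data known. Named from each list were genes called with at least a 2-fold change and the 2 with the highest mean, plus those said to be named after their values were seen. A few genes these rules select are not reported here. Of the 12 hypoxia and 10 proliferation genes, a few examples are given. Loci and exon lengths came from GENCODE release 44, promoter windows from RefSeq (GRCh38.p14). Python 3.11.15 was used for tables (pandas 2.3.3), permutation tests (scipy 1.17.1, numpy 2.4.6) and plots (matplotlib 3.10.9).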

Additional observations from a re-analysis of the deposited data

How the results depend on the processing

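Of 274 alternative values computed, 251 were labelled as unchanged. For single genes this meant the same direction and side of the threshold, and for levels and shares a value within 1 SD between libraries. Leaving out 1 of 3 libraries cannot move a mean share by 1 SD. For shares with a library left out the label was therefore fixed in advance and adds nothing. For ratios of genes it meant the same direction only. Counts of called genes could change and keep the label, as with 9235 calls over all genes with no filter against 11450. CA12 and SLC4A2 kept their calls under every alternative, and CA13, SLC4A4 and SLC4A7 were called under none. CA9 was also called under every alternative, but it passed the filter only through its day 5 libraries, so these calls add nothing to its values. The CA2 difference lost its call with no filter on low values (-0.56, adjusted p = 0.0708 in limma, where 38055 genes are tested) and on leaving out any of 3 libraries, with values from -0.69 to -0.42 over all 6 omissions. The direction of SLC4A4 was not stable: it was 0.0445 with library totals and ranged from -0.26 to 0.13 with a library left out. SLC4A7 ranged from -0.0074 to 0.089, and the log2 SLC4A4 to SLC4A7 ratio from -0.33 to 0.12. With no filter 2 of the SLC26 genes were called, 1 higher and 1 lower. With a library left out, the higher calls were 3 or 4 among other SLC4 genes and among SLC9 genes, 1 or 2 among acid sensors and channels, and 2 or 3 among proliferation genes. The cause was not tested.

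With the longest transcript as length, levels per kb on day 3 and day 5 were 433 and 289 for CA2, 149 and 141 for CA13, 612 and 883 for SLC4A2, and 445 and 463 for SLC4A7, since the lengths are shorter. The day 5 shares of the carbonic anhydrase sum were then 21.4% for CA9 and 23.6% for CA13, and the membrane enzymes went from 2.92% to 28.1%.

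Scaling by library totals moved the median log2 change of all genes from 0.01 to 0.08 and raised the part of the calls that were higher from 51.5% to 56.2%. Calls over all genes numbered 11450, against 9235 with no filter, 11488 with DESeq2, 12280 with edgeR and 9811 to 11380 with a library left out.

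Same-numbered libraries did not visibly deviate together (correlations of -0.01, 0.03 and 0.02). The labels give them only a shared number, and with 3 libraries per day this check cannot exclude a shared origin or preparation. With the replicate number as a block, 10533 genes were called and no call among the 7 genes changed. In the lists, TESC lost its call, 3 SLC9 genes were higher in place of 4, and 2 proliferation genes were higher in place of 3. The adjusted p-values in limma with this block were 0.00437 for CA12, 0.028 for CA2 and 0.0321 for SLC4A2. CA9 also had 0.00437, which adds nothing to its values. Depth limits SLC4A4, at 7 to 17 reads per library, and CA9 on day 3.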
